A study of Mus musculus with 6 samples.

Results

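The core cytosolic ribosomal protein genes of the mouse were followed through 6 RNA-seq libraries labelled as pachytene cells. Members were the protein-coding genes whose symbol is Rpl or Rps with a number (and an a or x where the symbol has one), together with Rpsa and Rplp0 to Rplp2. The naming pattern found 76 genes, of which Rpl10, Rpl39, Rpl36a and Rpl22 were left out, so that 72 of the 54532 genes in the files were members. Of these, 42 encode proteins of the large subunit and 30 encode proteins of the small subunit. They lie on 19 chromosomes, with a single X-linked member, Rps4x.

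The cytosolic ribosome joins a small subunit, which decodes the mRNA, with a large subunit, which forms peptide bonds, and each ribosomal protein is normally present as a single copy per ribosome (the acidic P1 and P2 proteins of the stalk excepted). The mRNAs of most of these proteins begin with a C followed by a run of pyrimidines, the 5′ terminal oligopyrimidine (TOP) motif, through which mTOR signalling and the RNA-binding protein LARP1 control their translation. In the male germ line the X chromosome is silenced at the pachytene stage of meiosis, and autosomal retrogene copies of X-linked ribosomal protein genes are known to be expressed there.

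The series holds 3 genotypes, with 2 libraries each. The first, written EE_KO here, carries MAPS overexpression on the MAPS knockout background, the second is the MAPS knockout (KO), and the third is the wild type (WT). The KO background is thus shared by EE_KO and KO, while the promoter that drives the added MAPS and the meaning of the letters EE are not given in the labels. Cells came from testes at about postnatal day 80 and were separated by sedimentation (STA-PUT), which enriches cells by size and does not sort them by a marker, with 3 mice of identical genotype per group over 2 independent experiments. The series asked about silencing of the sex chromosomes in pachytene cells that lack MAPS. Whether a library pools mice is not stated, so that p-values measure the spread between these libraries only.

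The gene encoding MAPS, 1700102P08Rik, stood at 109 and 82.2 FPKM (fragments per kilobase, scaled to library size) in EE_KO, at 7.97 and 10.1 in KO and at 157 and 150.2 in WT. Its log2 change in KO against WT was -3.95 (SE 0.16, adjusted p = 2.75e-07, limma with Benjamini-Hochberg adjustment). Both EE_KO libraries lay below the WT ones in the FPKM of this gene, which measure RNA over its annotated exons and not the MAPS protein. The change in EE_KO against WT was -0.70 and was not called (SE 0.16, adjusted p = 0.254, limma). Reads recovered from the FPKM came to 14178387 to 16565238 per library. Markers of pachytene cells were high in EE_KO and WT, where those of spermatids were present too, whereas in KO most of the pachytene markers were low. The summed FPKM of 13 pachytene markers was 6346 and 6771 in EE_KO, 361 and 437 in KO and 7063 and 6564 in WT, and 12 of the 13 were called lower in KO than in WT. The exception was Sycp1 of the synaptonemal complex, with 50.1 and 62.0 FPKM in EE_KO, 38.0 and 41.9 in KO and 43.2 and 47.9 in WT. The 10 spermatid markers summed to 1964 and 2899 FPKM in EE_KO, 17.6 and 17.0 in KO and 1509 and 3185 in WT, and 10 of 10 were called lower in KO. The 10 spermatogonial markers summed to 489 and 507 FPKM in EE_KO, 211 and 259 in KO and 533 and 471 in WT, of which Dmrtb1 made up most in EE_KO and WT. Without Dmrtb1 the sums were 24.0 and 18.8 FPKM in EE_KO, 193 and 236 in KO and 21.1 and 22.7 in WT, and of 9 tested spermatogonial markers 8 were called higher in KO and Dmrtb1 lower. Summed over 14 Sertoli markers, FPKM were 401 and 216 in EE_KO, 3409 and 3202 in KO and 242 and 245 in WT, with 13 of 13 tested called higher in KO. Leydig markers (8 genes) summed to 177 and 84.3 FPKM in EE_KO, 2234 and 2142 in KO and 58.0 and 109 in WT, with 8 of 8 called higher in KO. Markers of peritubular, endothelial and blood cells (9 genes) summed to 3.72 to 6.84 FPKM in EE_KO, 26.4 to 28.5 in KO and 3.19 to 3.56 in WT, and those of macrophages and leukocytes (8 genes) to 3.52 to 4.37 FPKM in EE_KO, 17.3 to 24.1 in KO and 2.56 to 3.36 in WT. C1qa, a macrophage marker, was listed at 0 in both WT libraries. The minimum for testing, a mean of 1 FPKM, included the KO libraries, so that low markers could be tested because of their KO level. The counts of markers called higher in KO are therefore no separate support, whereas the summed FPKM do not depend on that minimum. Every difference of KO from WT or EE_KO below is thus one between cell preparations whose marker levels differed this much, and the part of cell makeup in it was not tested. In bulk RNA, fewer cells of a type and less RNA per cell cannot be told apart.

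The bases around the annotated start are shown first for the members the results turn on. The TOP motif there bears on the translation of these mRNAs, which RNA levels do not measure. The windows are of 60 bases, 40 before the RefSeq start and 20 from it on, 5′ to 3′, from RefSeq on GRCm38.p6. Capitals mark the longest run that opens with C and goes on with at least 6 letters C or T within 15 bases on either side of the start. The set holds 4 members that rose in KO (Rps4x, Rps10, Rps2 and Rpl14), 3 that fell (Rps27, Rps7 and Rps13) and Rps6, which was not called.
Rps4x, chrX:102189372-102189431, minus strand: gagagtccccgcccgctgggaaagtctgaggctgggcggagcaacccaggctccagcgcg
Rps10, chr17:27635225-27635284, minus strand: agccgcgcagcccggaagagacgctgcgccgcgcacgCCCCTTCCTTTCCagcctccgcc
Rps2, chr17:24720023-24720082, plus strand: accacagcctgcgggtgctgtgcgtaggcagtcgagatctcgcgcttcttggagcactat
Rpl14, chr9:120571477-120571536, plus strand: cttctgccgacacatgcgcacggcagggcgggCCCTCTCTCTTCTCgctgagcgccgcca
Rps27, chr3:90213629-90213688, minus strand: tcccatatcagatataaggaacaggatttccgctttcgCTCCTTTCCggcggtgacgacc
Rps7, chr12:28635934-28635993, minus strand: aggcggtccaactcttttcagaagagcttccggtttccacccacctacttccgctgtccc
Rps13, chr7:116334171-116334230, minus strand: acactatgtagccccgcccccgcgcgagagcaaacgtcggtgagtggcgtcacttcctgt
Rps6, chr4:86857348-86857407, minus strand: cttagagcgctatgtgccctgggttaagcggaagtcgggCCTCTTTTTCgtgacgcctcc

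Among these windows, Rps10, Rpl14, Rps27 and Rps6 held a run, of 13, 14, 9 and 10 letters, whereas Rps4x, Rps2, Rps7 and Rps13 held none, so that both the risers and the fallers had windows with and without it. The set of RefSeq starts used here covered 52 of the 72 members, and the others were not searched. Such a run, on the sense strand, was present in 28 of them (53.8%), against 16.4% of all 27025 genes with a listed start and 17.3% of the 10716 tested ones. A C exactly at the start followed by at least 4 letters C or T was present in 13 members (25%), against 3.01% of all genes and 3.14% of the tested ones. In the whole window of 300 bases, on either strand, CCGGAAG, the letters bound by ETS factors, occurred in 22 members (42.3%), against 9.93% of all and 19.2% of tested genes. The letters AAGATGG, which match the core of the YY1 motif and can share the letters AAG with a preceding CCGGAAG, occurred in 8 members (15.4%), against 7.28% and 8.67%. TATAAA occurred in 3 members (5.77%), against 15.7% and 9.01%. Of the members with a listed start, the run was held by 12 of 20 called higher in KO than in WT, 5 of 13 called lower and 11 of 19 not called, and CCGGAAG by 9, 6 and 7 of them. These are matches of letters, and the choice of the run was made after the data were seen.

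The members spanned a wide range of levels even within WT. Mean FPKM in WT reached at least 100 for 18 members, lay between 10 and 100 for 49 and below 10 for 5. The median over members was 52.1 FPKM in EE_KO, 62.6 in KO and 58.7 in WT. The ratio of the highest to the lowest member was 999.9-fold in EE_KO, 226-fold in KO and 1049-fold in WT, on FPKM per annotated exon length.

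**Figure D1:**
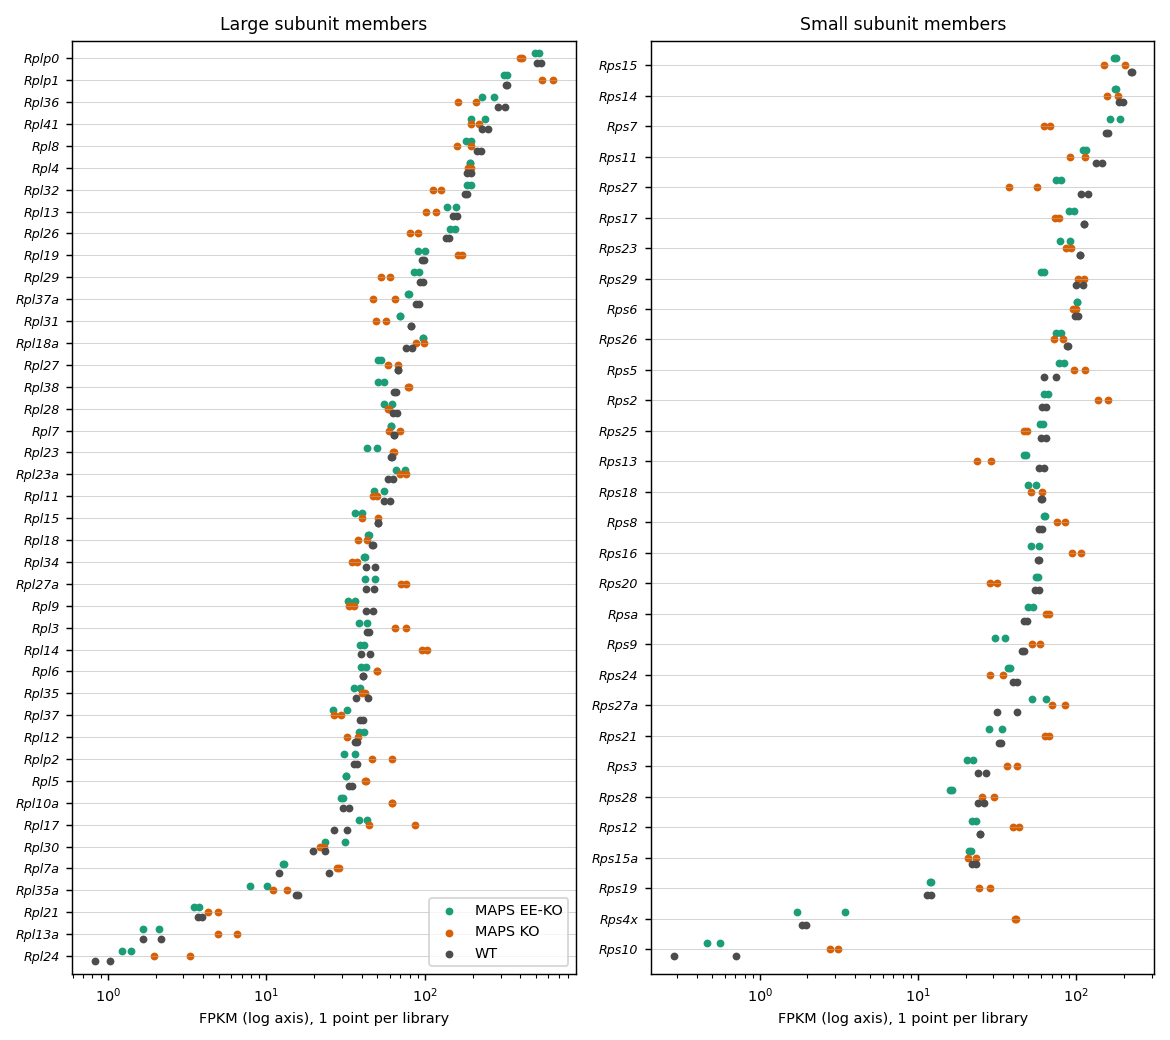
FPKM (log axis) of the 72 members, 1 point per library, large subunit on the left and small subunit on the right, sorted from the highest mean WT level at the top. EE_KO points mostly lie near the WT points, while KO points move to either side of them, and Rps4x stands at 41.4 and 41.1 FPKM in KO against 1.84 and 1.94 FPKM in WT.

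Rplp0, the base of the stalk that recruits translation factors, had the highest level in WT, with 497 and 527 FPKM in EE_KO, 396 and 408 in KO and 537 and 509 in WT. Rplp1, an acidic protein of the same stalk, came next with 330 and 314 FPKM in EE_KO, 544 and 640 in KO and 323 and 331 in WT. Rplp2, its partner in the stalk, had only 36.2 and 31.0 FPKM in EE_KO, 46.2 and 62.1 in KO and 35.5 and 37.4 in WT. The KO libraries lay below the others for Rplp0 and above them for Rplp1 and Rplp2, and Rplp1 passed Rplp0 as the highest member in KO. Rplp0 changed by -0.38 in KO against WT on the log2 scale (SE 0.11, adjusted p = 0.0118), Rplp1 by 0.85 (SE 0.12, adjusted p = 0.000236) and Rplp2 by 0.54 (SE 0.15, adjusted p = 0.0110). The change of Rplp0 was 0.06 when the FPKM were rescaled to TPM (transcript shares, with the same total in each library). Without WT replicate 1 it was -0.34, close to the value with all libraries, but was not called (adjusted p = 0.0717). The call of Rplp2 was lost without KO replicate 2 (0.33, adjusted p = 0.0672) or WT replicate 1 (0.51, adjusted p = 0.0575).

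The next members by WT level were Rpl36, Rpl41 and Rps15. Rpl36, a protein of the large subunit, had 272 and 228 FPKM in EE_KO, 162 and 211 in KO and 319 and 291 in WT. Rpl41, the shortest ribosomal protein, had 238 and 194 FPKM in EE_KO, 196 and 219 in KO and 230.4 and 250.2 in WT. Rps15, a protein of the small subunit head near the decoding site, had 174 and 179 FPKM in EE_KO, 151 and 205 in KO and 224 and 224 in WT. The KO libraries lay below the WT ones for all of these, yet only Rpl36 was called (-0.72, SE 0.16, adjusted p = 0.00286), with Rpl41 at -0.21 (SE 0.13, adjusted p = 0.173) and Rps15 at -0.35 (SE 0.15, adjusted p = 0.0568). Of the 10 highest members in WT, 10 were also among the 10 highest in EE_KO and 8 in KO. Together the 5 highest in WT made up 26.6% of the members' sum in EE_KO, 26.5% in KO and 27.1% in WT.

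At the low end stood Rps10, Rpl24, Rps4x, Rpl13a and Rpl21. Rpl24, a protein of a bridge between the subunits, had 1.39 and 1.23 FPKM in EE_KO, 1.95 and 3.30 in KO and 0.832 and 1.03 in WT, and rose by 0.88 (SE 0.20, adjusted p = 0.00362). Rpl21, a large subunit protein, had 3.49 and 3.73 FPKM in EE_KO, 4.27 and 4.94 in KO and 3.93 and 3.69 in WT, and was not called (0.22, SE 0.14, adjusted p = 0.180). In 3 of these 5 genes a second gene on the same strand shares exon bases, namely 20.6% of the exon bases of Rps10 with RPS10-NUDT3, 47.0% of those of Rpl24 with Gm28037 and 29.4% of those of Rpl13a with Gm45713. All 3 partners were listed at 0 FPKM in each library. The handling of reads shared by overlapping genes, not given in the sources used here, bears on them, and the levels of these 3 members are uncertain. Of the other members, 2 have a same-strand partner, Rpl13 (0% of exon bases) and Rpl19 (3.52%), and 20 overlap a gene on the opposite strand, whose reads cannot be told apart where the counting ignored strand.

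Ribosomal protein genes have many processed copies in the genome, which bears on how reads are assigned. Of the 72 members, 71 shared at least one stretch of 50 bases with a transcript of another gene, the median share of such stretches was 24.7%, and 6 members shared at least 50%. These 6 were Rpl35 (84.0%), Rpl36 (81.1%), Rpl23a (80.8%), Rplp1 (60.0%), Rpl19 (57.4%) and Rpl24 (51.8%), and their levels are uncertain to that extent. The 300 genes with an Rpl or Rps symbol followed by -ps, named after members or other ribosomal protein genes, were summed. They came to 769 and 804 FPKM in EE_KO, 829 and 945 in KO and 825 and 815 in WT. Depth was ample for most members. Recovered reads per member and library ran between 10 and 13091 with a median of 1786, and 68 members had at least 100 reads in each library. Libraries of the same group differed by a median of 0.10 on the log2 scale in EE_KO, 0.17 in KO and 0.08 in WT. The widest gaps between libraries of a group were 2.02-fold in EE_KO (Rps4x), 1.95-fold in KO (Rpl17) and 2.49-fold in WT (Rps10).

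In KO against WT the members did not move as 1 body. Of 72 members, 26 rose, 20 fell and 26 were not called (limma on log2(FPKM + 1), Benjamini-Hochberg adjusted p below 0.05 over 15368 genes). Together 63.9% of members were called, against a background of 86.2% of all genes tested, in which 38% rose and 48.1% fell. The members' median log2 change was 0.01, beside -0.29 over all genes tested. The size of the change reached 1 on the log2 scale for 11 members, 8 up and 3 down. The 95% interval stayed within a 2-fold change for 52. KO and WT libraries did not overlap in 61 members, with KO above in 31 and below in 30, and across all genes the groups did not overlap in 93.4% (41.6% above and 51.8% below).

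How the members split depended on the scale. All FPKM of a library summed to 315680 and 325048 in EE_KO, 251584 and 232716 in KO and 335071 and 321463 in WT, so that rescaling to TPM raised KO against WT by 0.44 on the log2 scale. With TPM, 43 members rose in KO and 4 fell (background 44.4% and 41.7%, 86.1% in all), the median was 0.45 beside 0.09 over all genes, and KO lay above WT without overlap in 52 members and below in 10 (48% and 45.3% of all genes, 93.3% together). All 26 members that rose with FPKM also rose with TPM. Of the 20 that fell, 4 fell with TPM too, namely Rps27, Rps7, Rps13 and Rps20, and the other 16 lost the call, 6 of them with a TPM change above 0. With each library centred on the members' own mean, 22 rose and 29 fell (background 35.4% and 50.3%, 85.7% in all), with 22 of the 26 risers and 20 of the 20 fallers still called. With TPM that leave short RNAs out of the total, 43 rose and 4 fell (background 44.8% and 41.2%, 86% in all), and after quantile normalization 57 rose and 4 fell (background 43.4% and 41.7%, 85.1% in all).

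**Figure D2:**
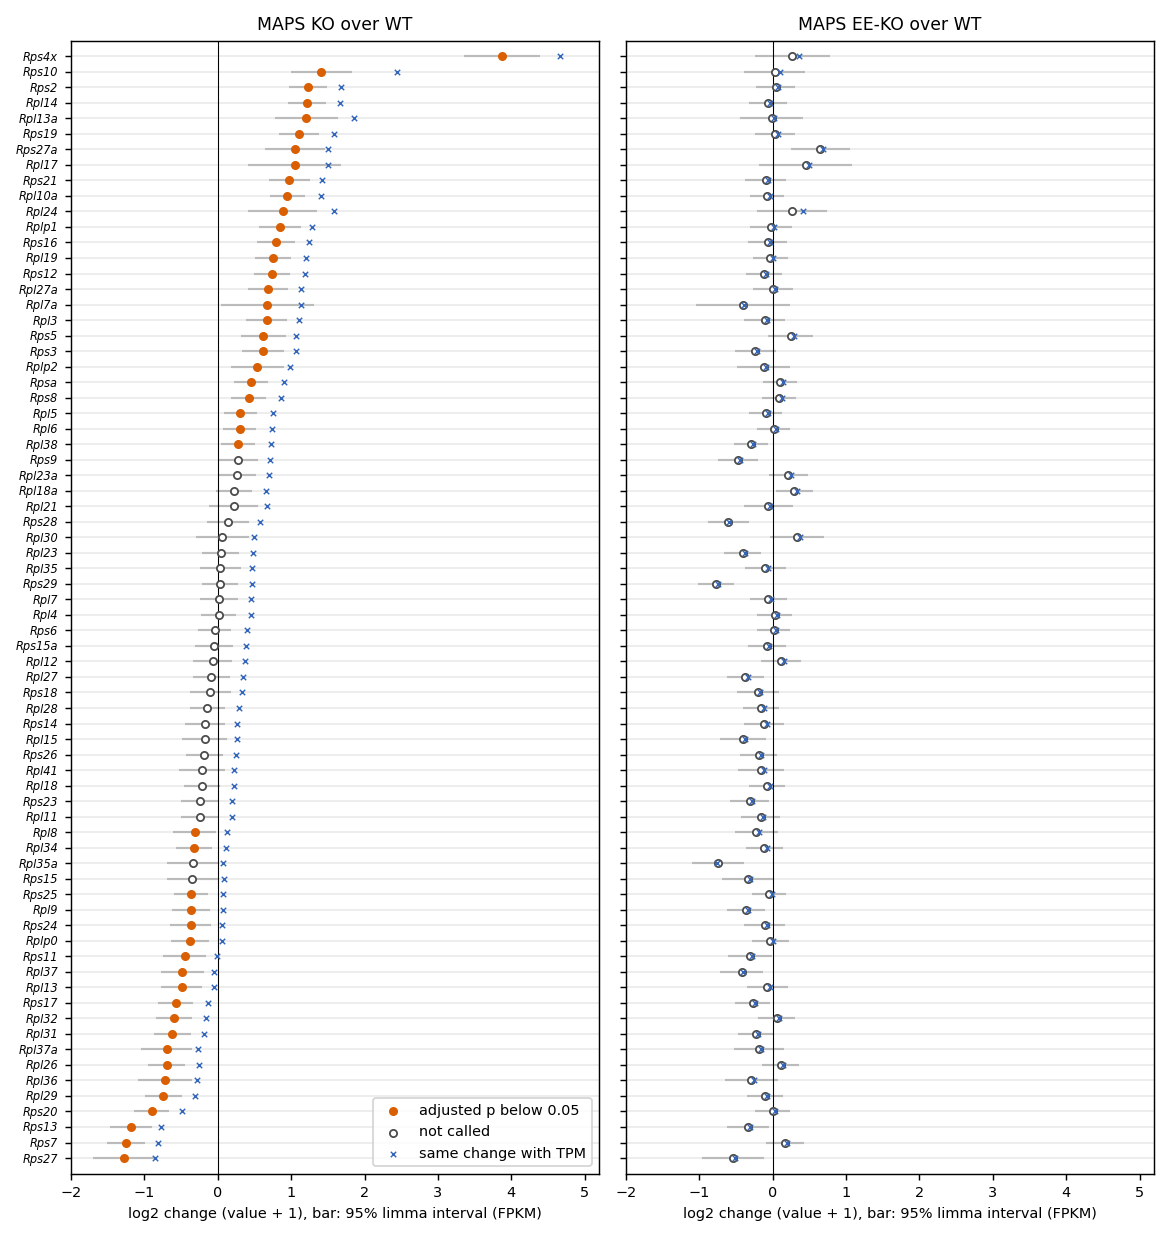
Log2 change of each member in KO over WT (left) and EE_KO over WT (right), sorted by the change in KO, with 95% limma intervals for FPKM (bars) and the same change with TPM (crosses). In KO over WT 26 members are called higher and 20 lower with FPKM, and the crosses lie to the right of the points; in EE_KO over WT no member is called.

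The summed level shows the same dependence. Members summed to 5642 and 5448 FPKM in EE_KO, 5699 and 6117 in KO and 6005 and 5950 in WT, so that KO and WT overlapped. As a share of all FPKM, which is the share of TPM, members made up 1.79% and 1.68% in EE_KO, 2.27% and 2.63% in KO and 1.79% and 1.85% in WT, with KO above both other groups. The mean share was 1.73% ± 0.08 in EE_KO, 2.45% ± 0.26 in KO and 1.82% ± 0.04 in WT (SD, n = 2 each). Mitochondrially encoded transcripts, whose share also moved, made up 2.67% and 2.46% in EE_KO, 11.9% and 7.25% in KO and 1.80% and 1.83% in WT. With these left out of the total, the members' share was 1.84% and 1.72% in EE_KO, 2.57% and 2.83% in KO and 1.83% and 1.89% in WT. The ratio of the large to the small subunit sums stayed between 1.77 and 1.88 in the 6 libraries.

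**Figure D3:**
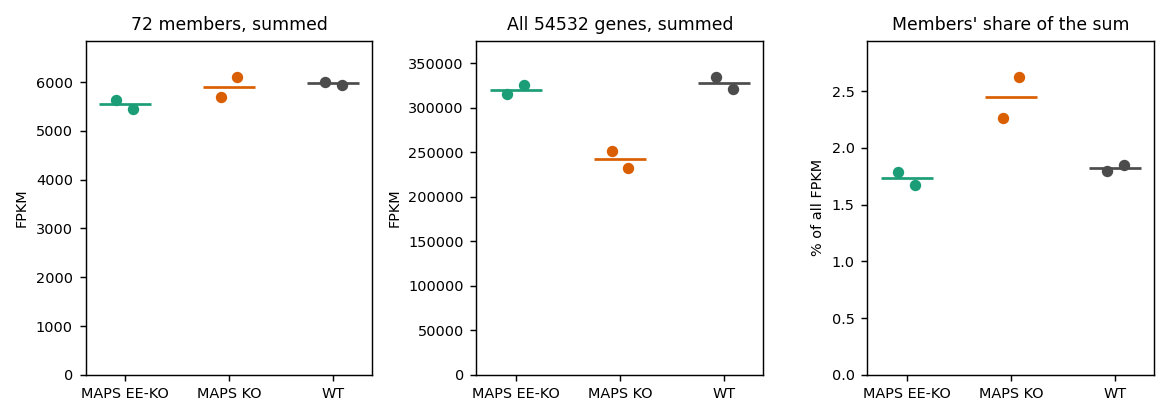
Summed FPKM of the 72 members, summed FPKM of all 54532 genes, and the members' share of that sum, 1 point per library with the group mean as a line, for EE_KO, KO and WT from left to right. The KO libraries span the WT ones in the members' sum, at 5699 and 6117 against 6005 and 5950 FPKM, while the sum over all genes is lower in KO.

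Rps4x, the X-linked gene of the small subunit protein eS4, had the largest rise. It stood at 3.48 and 1.72 FPKM in EE_KO, 41.4 and 41.1 in KO and 1.84 and 1.94 in WT. The KO libraries lay far above the rest, while those of EE_KO straddled the WT ones. The mean in KO was 41.2 ± 0.22 FPKM and that in WT 1.89 ± 0.07 (SD, n = 2 each), a 21.8-fold ratio and a log2 change of 3.87 (SE 0.22, adjusted p = 1.44e-06). Its rank among members was 52 in KO and 70 in WT, and it shared 41.2% of its 50-base stretches with other genes. Rps4l, an autosomal copy on chromosome 6 that is outside the members, had 133 and 129 FPKM in EE_KO, 65.2 and 84.6 in KO and 112 and 115 in WT, with a change of -0.60 in KO against WT (SE 0.13, adjusted p = 0.00317). Without Rps4x, 25 of 71 autosomal members rose and 20 fell.

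**Figure D4:**
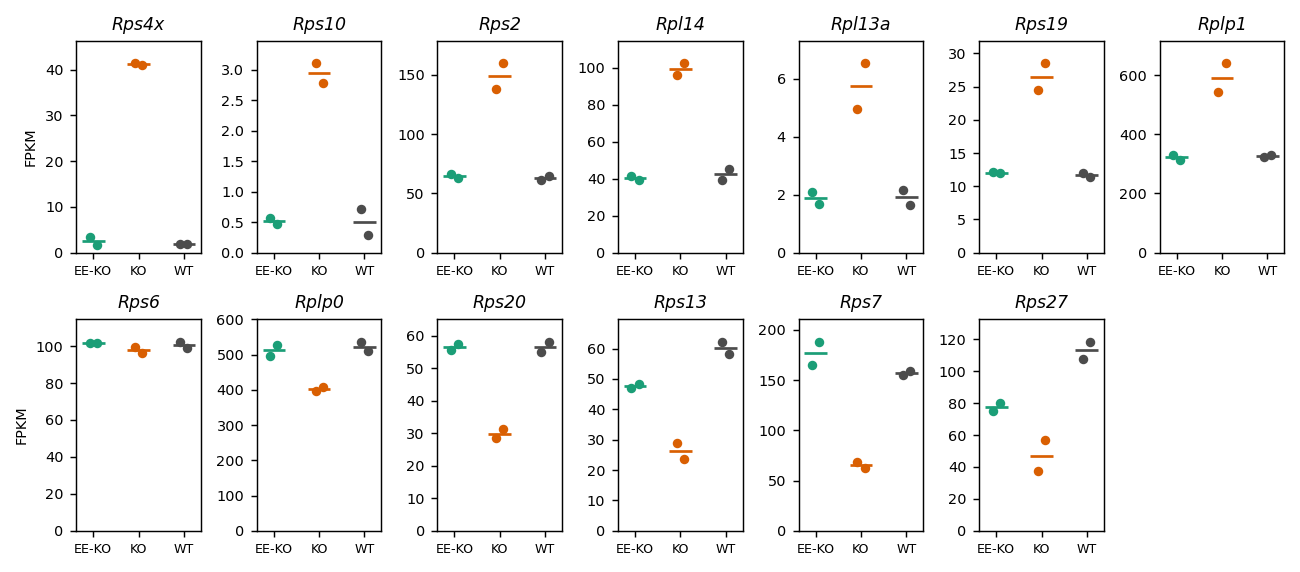
FPKM of 13 members in each library (points) with group means (lines), for EE_KO, KO and WT from left to right; each panel has its own axis from 0. In Rps4x, Rps10, Rps2, Rpl14, Rpl13a, Rps19 and Rplp1 the KO points lie above all others, and in Rplp0, Rps20, Rps13, Rps7 and Rps27 below all others.

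The other large rises were of small and large subunit genes alike. Rps10, a small subunit protein near the mRNA entry, had 0.561 and 0.463 FPKM in EE_KO, 3.11 and 2.79 in KO and 0.711 and 0.286 in WT. Rps2, which lines the mRNA entry channel, had 66.6 and 62.7 FPKM in EE_KO, 138 and 160 in KO and 60.9 and 64.8 in WT. Rpl14, a large subunit protein, had 41.6 and 39.1 FPKM in EE_KO, 96.1 and 102 in KO and 39.3 and 45.1 in WT. In each of the 3 both KO libraries lay above all others. The log2 changes in KO against WT were 1.41 for Rps10 (SE 0.18, adjusted p = 0.000114), 1.23 for Rps2 (SE 0.11, adjusted p = 1.64e-05) and 1.22 for Rpl14 (SE 0.11, adjusted p = 1.62e-05). Rps10 was tested only because of its KO level, since its mean was 1.32 FPKM over the 6 libraries but 0.505 without KO, under the minimum of 1 FPKM, so that its call is no support for a rise of the members. Without that minimum its adjusted p was 0.00187. It was the 1 member in this position, and among the other 71 members 25 rose and 20 fell. Rpl13a, a large subunit protein also known from the GAIT complex that represses translation of inflammatory mRNAs, had 2.10 and 1.68 FPKM in EE_KO, 4.95 and 6.53 in KO and 2.16 and 1.66 in WT. Rps19, the gene most often mutated in the human disorder Diamond-Blackfan anaemia, had 12.1 and 12.0 FPKM in EE_KO, 24.5 and 28.5 in KO and 12.1 and 11.4 in WT. Here too KO lay above both groups, with log2 changes of 1.21 (SE 0.18, adjusted p = 0.000345) for Rpl13a and 1.11 (SE 0.12, adjusted p = 4.26e-05) for Rps19. The added 1 FPKM shrinks the change of low members, and as ratios of the mean FPKM in KO to that in WT the order differed. The ratio was 5.92-fold for Rps10, 3.01-fold for Rpl13a and 2.82-fold for Rpl24, above the 2.37-fold of Rps2 and the 2.35-fold of Rpl14. With TPM the log2 changes were 2.44 for Rps10, 1.86 for Rpl13a and 1.59 for Rpl24, beside 1.67 for both Rps2 and Rpl14.

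Rps27a, which is translated as a fusion with ubiquitin, had 64.1 and 53.0 FPKM in EE_KO, 70.2 and 85.5 in KO and 42.6 and 31.8 in WT. Rpl17, a protein beside the exit of the peptide tunnel, had 38.3 and 42.8 FPKM in EE_KO, 86.3 and 44.2 in KO and 32.1 and 26.9 in WT. For both genes EE_KO lay between KO and WT, and the KO libraries of Rpl17 were far apart. Rps27a rose by 1.05 in KO (SE 0.17, adjusted p = 0.000545) and Rpl17 by 1.05 (SE 0.27, adjusted p = 0.00682), a call that was lost for Rpl17 without WT replicate 2 (0.92, adjusted p = 0.0501). Rps21, a small subunit protein, had 33.8 and 28 FPKM in EE_KO, 63.6 and 67.8 in KO and 32.5 and 33.4 in WT (0.98, SE 0.12, adjusted p = 9.33e-05). Rpl10a, the protein of the mobile L1 stalk, had 30.3 and 29.7 FPKM in EE_KO, 62.0 and 61.9 in KO and 30.2 and 33.0 in WT (0.95, SE 0.10, adjusted p = 3.84e-05). In both, KO stood apart from EE_KO and WT. Over the 26 risers the log2 change ran between 0.28 and 3.87 with a median of 0.77, and Rpsa, the laminin receptor protein of the small subunit, was among them at 0.46 (SE 0.10, adjusted p = 0.00286), with 53.7 and 49.7 FPKM in EE_KO, 67.8 and 64.8 in KO and 46.9 and 49.0 in WT.

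The largest falls in KO against WT were in 4 small subunit genes, and these were the ones called with both FPKM and TPM. Rps27, a zinc finger protein, had 75 and 79.9 FPKM in EE_KO, 37.5 and 56.7 in KO and 108 and 119 in WT. Rps7, known also for binding MDM2, had 165 and 188 FPKM in EE_KO, 68.5 and 62.6 in KO and 155 and 159 in WT. Both had KO below all other libraries, and for Rps27 EE_KO lay between KO and WT. Rps13, which takes part in a bridge between the subunits, had 47.2 and 48.2 FPKM in EE_KO, 28.8 and 23.6 in KO and 62.3 and 58.4 in WT. Rps20, a protein of the small subunit head, had 55.6 and 57.6 FPKM in EE_KO, 28.4 and 31.4 in KO and 55.1 and 58.2 in WT. KO was again the lowest group, and of these 4 genes EE_KO overlapped WT only for Rps20. The log2 changes were -1.28 for Rps27 (SE 0.18, adjusted p = 0.000234), -1.25 for Rps7 (SE 0.11, adjusted p = 1.42e-05), -1.18 for Rps13 (SE 0.12, adjusted p = 3.25e-05) and -0.90 for Rps20 (SE 0.10, adjusted p = 6.44e-05). With TPM they were -0.85, -0.82, -0.77 and -0.48.

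The other named fallers were of the large subunit and were called with FPKM but not with TPM. Rpl29, a heparin-binding protein, had 85.4 and 91.2 FPKM in EE_KO, 53.1 and 60.0 in KO and 92.9 and 97.0 in WT. Rpl26, known for binding p53 mRNA, had 144 and 156 FPKM in EE_KO, 80.3 and 90.7 in KO and 142 and 135 in WT. Rpl32, a protein on the solvent side, had 184 and 194 FPKM in EE_KO, 113 and 127 in KO and 183 and 179.8 in WT. KO was below both groups in all 3, with log2 changes of -0.74, -0.69 and -0.60 (SE 0.11 each, adjusted p = 0.000257, 0.000438 and 0.000911). Rpl37a, with a zinc finger, had 78.5 and 79.4 FPKM in EE_KO, 47.2 and 64.4 in KO and 88.3 and 91.4 in WT. Rpl31, at the exit of the peptide tunnel, had 70.0 and 69.2 FPKM in EE_KO, 56.8 and 49.1 in KO and 82.0 and 81.1 in WT. Both showed KO lowest and WT highest, at -0.69 for Rpl37a (SE 0.15, adjusted p = 0.00239) and -0.62 for Rpl31 (SE 0.11, adjusted p = 0.000774). With TPM the changes of Rpl29, Rpl36, Rpl26, Rpl37a, Rpl31 and Rpl32 were -0.31, -0.28, -0.26, -0.26, -0.19 and -0.16. Over the 20 fallers the log2 change ran between -1.28 and -0.31 with a median of -0.58.

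Rps6, the substrate of the S6 kinases, was among the 26 members without a call. It had 102 and 102 FPKM in EE_KO, 99.7 and 96.2 in KO and 102 and 99.0 in WT. The KO and WT libraries overlapped, and the log2 change was -0.04 (SE 0.10, adjusted p = 0.702), whereas with TPM it was 0.40 and called (adjusted p = 0.00517). Altogether 17 of the 26 members without a call rose with TPM.

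With FPKM, risers and fallers were found in both subunits, and fallers were more frequent among the members with at least 50 FPKM in WT than below. Calls and changes here are with FPKM unless TPM is named. In the large subunit 14 members rose and 12 fell of 42 (median 0.01), and in the small subunit 12 rose and 8 fell of 30 (median 0.00). Of the 40 members with at least 50 FPKM in WT, 7 rose and 16 fell (median -0.20). Of the 32 below 50 FPKM, 19 rose and 4 fell (median 0.50). The split changed with TPM, where 44.4% of all genes rose and 41.7% fell. With TPM 25 members rose and 0 fell in the large subunit, and 18 rose and 4 fell in the small subunit. Of the members with at least 50 FPKM in WT, 17 rose and 4 fell with TPM (median 0.24). Of those below 50 FPKM, 26 rose and 0 fell with TPM (median 0.94). With FPKM again, the faller with the lowest WT level was Rpl37, at a mean of 39.6 FPKM. Of the 20 members below it 14 rose and 6 were not called. The rank correlation of the change with the WT level was -0.57 over 72 members, a description only, since the change contains the WT values and members share libraries. The WT median was 36.8 FPKM for the risers, 104 for the fallers and 61.2 for those not called. By shared sequence, where at least 25% of 50-base stretches were shared, 17 members rose and 10 fell of 35, and with a lower share 9 rose and 10 fell of 37. Between the gene start and end of 27 members lie 55 snoRNA genes in all, counted on either strand and without a check of introns. They lie in 14 of the 26 risers, 6 of the 20 fallers and 7 of the 26 not called.

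In EE_KO against WT no member was called, up or down, with limma on FPKM, and none with voom on the recovered reads. Unadjusted p was below 0.05 for 17 of 72, beside 1150 of all 15368 genes, of which 0.0455% were called (0.026% up and 0.0195% down). The median over members was -0.09 and that over all genes 0.00. The 95% interval stayed within a 2-fold change for 67 members, all but Rpl17, Rpl35a, Rpl7a, Rps27a and Rps29, and the change was under 0.5 on the log2 scale for 67. The libraries nonetheless stood apart in many members. EE_KO and WT did not overlap in 48 members (13 above, 35 below), whereas over all genes they did not overlap in 36.5% (16.7% above, 19.8% below). With TPM these were 16 above and 29 below, against 20.9% and 17.3% of all genes (38.2% together).

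The members farthest above WT in EE_KO were Rps27a and Rpl17, given above, at 0.65 (SE 0.17, adjusted p = 0.345) and 0.45 (SE 0.27, adjusted p = 0.793), and Rpl30. Rpl30, a large subunit protein, had 31.4 and 23.5 FPKM in EE_KO, 23.1 and 21.8 in KO and 23.4 and 19.6 in WT, a change of 0.33 (SE 0.16, adjusted p = 0.706). The EE_KO libraries of Rpl30 lay above those of WT by a narrow margin. Farthest below were Rps29, Rpl35a and Rps28, of which Rps29 and Rps28 belong to the small subunit. Rps29, a zinc finger protein, had 63.1 and 59.6 FPKM in EE_KO, 113 and 103 in KO and 111 and 100.2 in WT (-0.77, SE 0.11, adjusted p = 0.144). Rpl35a, a large subunit protein, had 10.1 and 7.86 FPKM in EE_KO, 11 and 13.4 in KO and 15.4 and 15.8 in WT (-0.75, SE 0.15, adjusted p = 0.208). Rps28, near the mRNA exit, had 16 and 16.3 FPKM in EE_KO, 25.5 and 30.1 in KO and 26.1 and 24.1 in WT (-0.60, SE 0.12, adjusted p = 0.195). In all 3 EE_KO was the lowest group without overlap, and for Rps29 and Rps28 KO and WT overlapped.

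EE_KO against KO shares its libraries with both comparisons above, so that its values are given beside them and are no separate evidence. Here 14 members rose, 30 fell and 28 were not called (61.1% called, background 85.6%, with 47.8% up and 37.8% down), at a median of -0.09 beside 0.26 over all genes. With TPM the counts were 4 up and 48 down (background 41.6% and 44%), and centred on the members 25 up and 21 down (51.8% and 33.3%, 85.2% in all). They were 4 up and 49 down with TPM without short RNAs (background 41.2% and 44.3%, 85.5% in all) and 3 up and 60 down after quantile normalization (40.8% and 43.5%, 84.3% in all). With each library left out in turn, the members' median with FPKM stayed between -0.16 and -0.087. The largest rises over KO were of Rps7 (1.41, SE 0.11, adjusted p = 7.75e-06), Rps20 (0.90, SE 0.10, adjusted p = 6.67e-05) and Rps13 (0.85, SE 0.12, adjusted p = 0.000247). The largest falls were of Rps4x (-3.60, SE 0.22, adjusted p = 2.28e-06), Rps10 (-1.38, SE 0.18, adjusted p = 0.000132) and Rpl14 (-1.28, SE 0.11, adjusted p = 1.30e-05). Rps10 was tested only because of its KO level here too, so that its call is no support for a fall of the members. EE_KO and KO did not overlap in 20 members with EE_KO above and in 34 with EE_KO below, against 51.7% and 41.8% of all genes (93.6% together).

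Other genes of the ribosome and of translation are given for KO against WT by lists, with counts to be read beside the background of 38% up and 48.1% down with FPKM, and of 44.4% up and 41.7% down with TPM. Of the ribosomal proteins outside the naming rule, 8 rose and 4 fell of 15 tested (16 listed, median 0.40). With TPM 10 of them rose and 3 fell (median 0.88). Rpl10, the X-linked large subunit protein near the peptidyl transferase centre, had 6.05 and 4.33 FPKM in EE_KO, 52.9 and 53.2 in KO and 3.76 and 3.96 in WT, and its autosomal copy Rpl10l had 245 and 241 FPKM in EE_KO, 26.1 and 29.3 in KO and 274 and 272 in WT. The pair moved in opposite directions in KO, by 3.48 (adjusted p = 4.00e-07) and -3.26 (adjusted p = 9.80e-08). Rpl39, also X-linked, changed by 2.88 (adjusted p = 1.24e-06) and its copy Rpl39l by -3.91 (adjusted p = 8.44e-07).

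Of the translation factors and other TOP mRNAs, 3 rose and 9 fell of 15 (median -0.74; with TPM 6 rose and 7 fell, median -0.32). Pabpc1, the poly(A)-binding protein, had 716 and 815 FPKM in EE_KO, 85.4 and 98.1 in KO and 669 and 638 in WT, a change of -2.82 (SE 0.13, adjusted p = 4.14e-07). Hnrnpa1, a splicing factor, changed by 1.84 (adjusted p = 1.87e-06), Tpt1, the translationally controlled tumour protein, by 1.07 (adjusted p = 1.68e-05) and Eef1g, a subunit of the elongation factor complex, by -0.93 (adjusted p = 4.58e-05). Ribosome biogenesis factors rose in 22 and fell in 8 of 40 genes (median 0.53; 30 and 6 with TPM). Among them Wdr12 of the PeBoW complex changed by -2.44 (adjusted p = 9.62e-07), Sbds of late large subunit maturation by -1.77 (adjusted p = 1.70e-06), Mrto4, which helps assemble the stalk, by -2.02 (adjusted p = 2.39e-06) and Ncl, nucleolin, by 2.42 (adjusted p = 2.43e-06). Of these 4, which had the smallest p, 3 fell, while over the whole list rises were more frequent.

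Of 13 genes of RNA polymerase I transcription, which makes the precursor of most ribosomal RNA, 5 rose and 6 fell (median -0.35; 6 and 4 with TPM, median 0.05). Ubtf, the upstream binding factor, had 5.01 and 3.66 FPKM in EE_KO, 43.6 and 45.2 in KO and 3.46 and 3.88 in WT (3.28, SE 0.15, adjusted p = 5.17e-07). Taf1b, of the promoter selectivity factor, changed by -2.05 (adjusted p = 1.11e-06), Polr1b, a core polymerase subunit, by 1.67 (adjusted p = 1.17e-05) and Znrd1, a small subunit of the polymerase, by -0.99 (adjusted p = 4.63e-05). Genes that control ribosomal protein synthesis rose in 15 and fell in 5 of 21 (median 0.78; 16 and 2 with TPM). Larp1, which binds TOP mRNAs, had 160 and 173 FPKM in EE_KO, 38.1 and 41.0 in KO and 174 and 161 in WT (-2.06, SE 0.11, adjusted p = 8.64e-07). Mtor, the kinase of the pathway, changed by -1.41 (adjusted p = 9.92e-06), Rps6kb2, an S6 kinase, by 1.95 (adjusted p = 7.13e-06) and Myc by 3.42 (adjusted p = 2.70e-06). For Larp1 and Mtor the KO libraries lay below the others, and for Myc, which activates ribosomal genes, above them.

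The mitochondrial ribosome, encoded by a separate set of nuclear genes, gave a comparison of like size. Of 77 tested genes (78 listed), 28 rose and 27 fell in KO against WT with a median of 0.01, the same as the members' to this precision. With TPM, 40 rose and 20 fell (median 0.42). The smallest p were of Mrpl39 (-1.95), Mrpl47 (-1.73), Mrpl14 (2.0) and Mrpl1 (-1.64). In EE_KO against WT limma called 0 genes of any of these lists, and unadjusted p was below 0.05 for 2 of 15 ribosomal proteins outside the rule, 0 of 15 translation genes, 2 of 40 biogenesis factors, 1 of 13 polymerase I genes, 1 of 21 control genes and 9 of 77 mitochondrial ribosomal proteins.

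**Figure D5:**
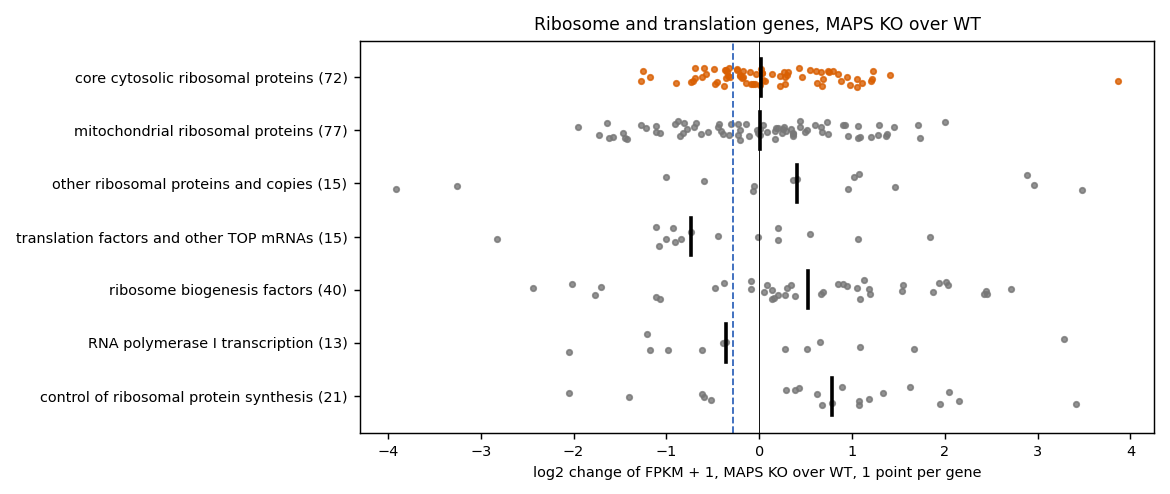
Log2 change of FPKM + 1 in KO over WT for each tested gene of the members and of 6 other lists (number of genes in brackets), with list medians as black bars and the median of all genes tested as a dashed line. The members and the mitochondrial ribosomal proteins both centre on 0.01, against -0.29 over all genes, and the members lie between -1.28 and 1.41 apart from Rps4x at 3.87.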

How the data were processed

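RNA-seq libraries of STA-PUT cells labelled pachytene (2 each of EE_KO, KO and WT) were deposited as FPKM per Ensembl gene, per the file headers. The genome builds are GRCm38 and mm10, per the submitters' processing notes; the sources used here name no aligner, counter or strand. Libraries used a SMARTer mRNA-seq kit and 1.3 µg of total RNA, per the labels' protocols. GENCODE M21 gave symbols, positions and exon lengths for 54495 of 54532 genes. Genes with a mean of at least 1 FPKM were tested (15368, among them 72 of 72 members), without 533 short RNA genes and 6 lower entries of repeated symbols. All 6 libraries entered 1 fit of log2(FPKM + 1) in limma 3.58.1 under R 4.3.3, with a trend and no replicate block, adjusted by Benjamini-Hochberg at 0.05; the pseudocount of 1 shrinks changes of low genes. FPKM times exon length gave whole reads for 96.8% to 97.0% of values above 0 (tolerance 0.01), used with voom as an alternative. At this depth 1 read over 2 kb stood for 0.0278 to 0.0357 FPKM. TPM are FPKM rescaled to the same total in each library.

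Members, lists, tests and alternatives were chosen with earlier results of these data known; the 50-base sharing, exon overlap and run counts were added after these data were seen. Named genes are the 10 largest called rises and falls in KO against WT, the 3 largest changes each way in the other comparisons, the 5 highest and lowest in WT, Rps4x, the stalk genes, Rps27a, Rps6, Rpsa and up to 4 genes per list by smallest p; Rps4l was added as the copy of Rps4x. The fit was run on simulated data as a check of the code only, since few genes changed there, unlike in KO against WT. Alternatives were other scalings, pseudocount, filters, models and each library left out. Tables and figures used Python 3.11.15, pandas 2.3.3, numpy 2.4.6 and matplotlib 3.10.9.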

Additional observations from a re-analysis of the deposited data

How the results depend on the processing

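Scaling moved the members' counts most. In KO against WT, 43 members rose with TPM, 43 with TPM without short RNAs and 57 after quantile normalization, against 26 with FPKM, while 4, 4 and 4 fell, against 20. Over all genes 44.4%, 44.8% and 43.4% rose under these scalings, and 41.7%, 41.2% and 41.7% fell. The median became 0.45, 0.49 and 0.66, and -0.12 when centred on the members. In EE_KO against KO, 4, 4 and 3 members rose under the first 3 scalings and 25 when centred, against 14, and 48, 49 and 60 fell, against 30, with medians of -0.49, -0.52, -0.73 and 0.15. In EE_KO against WT the centred median was 0.012. Quantile normalization turned Rpl36 (0.037), Rpl26 (0.17), Rpl37a (0.025), Rpl31 (0.087), Rpl32 (0.29), Rpl41 (0.60), Rplp0 (0.36), Rps15 (0.50) and Rps6 (0.79) positive in KO against WT. TPM did so for Rplp0 (0.060, and 0.097 without short RNAs) and Rps6 (0.40 and 0.43).

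Leaving out each library in turn gave 21 to 25 rises, 14 to 21 falls and medians of -0.045 to 0.024 in KO against WT, 0 calls and medians of -0.10 to -0.063 in EE_KO against WT, and 9 to 13 rises, 23 to 29 falls and medians of -0.16 to -0.087 in EE_KO against KO. The lone library of a group is then assumed to vary like the others. Deviations of same-numbered libraries from their group means correlated little (0.09 for EE_KO and KO, 0.05 for EE_KO and WT, -0.03 for KO and WT). These values cannot show whether libraries of the same number share an experiment, which the labels do not say. With a replicate block in the fit no member was called in EE_KO against WT. The block, pseudocount, filters, trend, the groups in the fit, median of ratios and voom kept each count of members called within 1.5 times. The members' share without short RNAs was 1.77% in EE_KO, 2.55% in KO and 1.85% in WT. The cause of these dependences was not tested, beyond the scale shift given above. Depth limits the 4 members with under 100 reads in a library, Rps10, Rpl24, Rpl13a and Rps4x.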
